A study of Mus musculus with 29 samples.

Results

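The STAT and SOCS genes followed here were Stat2, Stat3, Stat4, Stat5a, Stat5b, Stat6, Socs1, Socs3 and Cish. These 9 genes were taken by symbol from 24543 genes in the day 3 epidermis table, from 24453 in the day 3 dermis table and from 24081 in the week 1 table. RNA sequencing was done on skin of mixed-background mice aged 42 to 46 postnatal days, per the series title, in which the homeobox gene Dlx3 had been deleted by a tamoxifen-inducible Cre recombinase under the keratin 14 promoter (icKO), and on wild-type mice (WT). Every group, WT included, had been given tamoxifen. The keratin 14 promoter drives Cre in keratinocytes, and keratinocyte markers were present in the dermis samples as well as in epidermis. Day 3 epidermis held 4 WT and 4 icKO libraries from vehicle-treated skin, per the file headers, and 3 WT and 4 icKO libraries from skin given an agent named only as STAT3i, read here as a STAT3 inhibitor. Day 3 dermis held 3 WT and 3 icKO libraries. At week 1 there were 2 WT and 2 icKO libraries of epidermis after topical tamoxifen and as many of dermis after intraperitoneal tamoxifen, per the file headers, so tissue and route cannot be told apart.

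STAT proteins are transcription factors held inactive in the cytoplasm. Cytokine receptors activate JAK kinases, which phosphorylate STATs, and the STATs pair up and enter the nucleus. SOCS proteins and Cish (also called CIS) are made in response to STATs and feed back on receptors and JAKs. In skin, STAT3 acts downstream of the IL-6, IL-20 and IL-22 receptor families in keratinocytes and is known for its part in wound healing and psoriasis-like inflammation, STAT6 for its part in the response to IL-4 and IL-13, STAT5A and STAT5B for growth hormone, prolactin and IL-2 family signals, and STAT2 for type I interferon. The libraries measured mRNA, so neither phosphorylation nor the inhibitor's action on STAT3 protein was read.

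Regions near 4 of the gene starts are shown because they hold motifs that STATs and interferon response factors are known to bind: the STAT motifs TTCNNNGAA and TTCNNNNGAA, which read the same on either strand, and the interferon response motif GAAANNGAAA, searched on both strands. Sequences are RefSeq's in GRCm38.p6 (mm10), written along the gene's strand in lower case, with motif matches in capitals.
Cish, chr9:107296653-107296682, plus strand: ccagttTTCCTGGAAagTTCTTGGAAatct
Socs3, chr11:117969501-117969530, minus strand: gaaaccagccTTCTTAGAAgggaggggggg
Socs1, chr16:10785547-10785646, minus strand: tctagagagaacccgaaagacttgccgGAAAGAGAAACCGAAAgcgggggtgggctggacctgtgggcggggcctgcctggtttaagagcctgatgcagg
Stat2, chr10:128270258-128270317, plus strand: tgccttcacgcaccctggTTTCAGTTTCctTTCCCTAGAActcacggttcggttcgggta
Cish held 2 TTCNNNGAA matches, the first beginning at the RefSeq start and the second 11 bases further into the gene. Socs3 held 1, beginning 154 bases upstream. Socs1 held 2 overlapping GAAANNGAAA matches, 83 and 77 bases upstream, and no TTCNNNGAA match in the 300-base window. Stat2 held GAAANNGAAA on the opposite strand 222 bases upstream and TTCNNNNGAA 210 bases upstream. Of 32851 mouse promoters of the same 300-base length, 8.3% held TTCNNNGAA, 6.95% held TTCNNNNGAA and 3.44% held GAAANNGAAA. All 9 genes matched a promoter entry, 12 entries in all. One of the Stat4 entries held GAAANNGAAA 97 bases upstream, and the entries of Stat3, Stat5a, Stat5b and Stat6 held none of the 3 motifs in their windows.

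The genes lie on 5 mouse chromosomes (GENCODE M21 annotation, mm10). Stat5b (chromosome 11, 100780731 to 100850724, minus strand), Stat5a (100859351 to 100885169, plus strand) and Stat3 (100885098 to 100939540, minus strand) are neighbours, and the ends of Stat5a and Stat3 overlap on opposite strands. No source used here gives the strand setting of the counting, and reads from that overlap cannot be assigned to either gene. Socs3 (117966079 to 117970047, minus strand) is on chromosome 11 as well. For Socs3 and Cish the GENCODE span begins upstream of the RefSeq start used above, so the motif matches shown for them lie inside that span. Stat2 (128270559 to 128292849, plus strand) and Stat6 (127642986 to 127660957, plus strand) are on chromosome 10, Cish (107296026 to 107302784, plus strand) on chromosome 9, Socs1 (10782240 to 10785536, minus strand) on chromosome 16 and Stat4 (51987148 to 52107189, plus strand) on chromosome 1.

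Depth was 48942701 to 70291550 alignments per library in day 3 epidermis, 10137237 to 37252138 in day 3 dermis, and 37271189 to 57296317 reads at week 1. The libraries of a group carried no numbers in the tables and are called a to d, which are names only. Dlx3, the deleted gene, was at 3.04, 0.950, 7.13 and 7.21 RPKM (reads per kilobase of transcript, scaled to library size) in the day 3 WT epidermis and at 1.29 to 2.22 RPKM in the icKO epidermis, so WT library b was below every icKO library. With the inhibitor Dlx3 was at 6.07 to 6.77 RPKM in WT and at 1.01 to 1.71 RPKM in icKO. In day 3 dermis it was at 64.3, 65.9 and 1.75 RPKM in the libraries labelled icKO and at 3.58, 20.5 and 2.19 RPKM in those labelled WT, which goes against the labels. In week 1 Dlx3 was lower in every icKO library than in any WT library of the same tissue. Its week 1 means were 4.48 RPKM in WT and 1.64 RPKM in icKO epidermis, and 4.01 RPKM in WT and 0.154 RPKM in icKO dermis.

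Some libraries stood apart from or close to others. In day 3 epidermis icKO libraries a and b differed by an SD of 0.0736 (log2, over 8831 genes), inhibitor-treated icKO libraries a and d by 0.0835 and inhibitor-treated WT libraries a and c by 0.125, against 0.134 to 0.603 for the other pairs within a group. Calls of the STAT and SOCS genes that were lost when these 3 pairs were each counted as 1 sample are named where they occur. For single genes of the pathway and marker lists that result is not given. Over all genes, most calls in each day 3 epidermis comparison were lost that way. The day 3 epidermis calls of list genes are therefore not shown to hold with the pairs counted as 1 sample. Day 3 epidermis libraries also differed in sex markers along with genotype, since Y-linked genes were present in 6 of 7 WT libraries and Xist without Y-linked genes in 7 of 8 icKO libraries. In day 3 dermis WT library c carried Y-linked RNA and the others Xist alone. At week 1 WT dermis library a carried Xist alone and all others Y-linked RNA, and no sex term was fitted there. Skeletal muscle markers summed to 4788 to 13590 RPKM in every day 3 epidermis library, against 5361 to 14810 RPKM for keratinocyte markers, so these samples held RNA of deeper tissue. In these bulk samples fewer cells of a type and less RNA per cell cannot be told apart, and since the labels name no separate animals, p-values measure only the spread between these libraries.

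In WT skin Stat3 and Stat6 were the most abundant STAT mRNAs in every data set and Stat4, a STAT of T cells and natural killer cells, was nearly absent. In day 3 epidermis Stat3 averaged 35.1 ± 4.5 RPKM (SD, n = 4) and Stat6 29.5 ± 2.22 RPKM, and their ranges overlapped. Stat5b at 12.99 ± 0.80 RPKM, Stat2 at 11.9 ± 4.17 RPKM, Socs3 at 9.56 ± 2.65 RPKM, Stat5a at 8.22 ± 1.41 RPKM and Cish at 6.29 ± 2.06 RPKM followed, each overlapping the next. Socs1 was at 2.40 ± 0.992 RPKM and Stat4 at 0.276 ± 0.0739 RPKM.

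The order was not the same in the other tables, which were normalized separately. In WT dermis at day 3 Stat3 averaged 42.3 RPKM, Stat6 27.6 RPKM and Cish 17.8 RPKM, and the ranges of neighbours from Cish down to Stat5a at 8.79 RPKM overlapped. At week 1 Socs3 led with 74.8 ± 7.57 RPKM (SD, n = 2) in WT epidermis and 122 ± 15.6 RPKM (n = 2) in WT dermis, above Stat3 at 33.5 and 34.5 RPKM and Stat6 at 25.7 and 25.3 RPKM. Stat4 reached 1 RPKM in 2 of the 6 day 3 dermis libraries and in none of the other 23, so it passed the filter on low values in no comparison and was not tested. The other 8 genes reached 1 RPKM in every library and passed in every comparison.

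**Figure D1:**
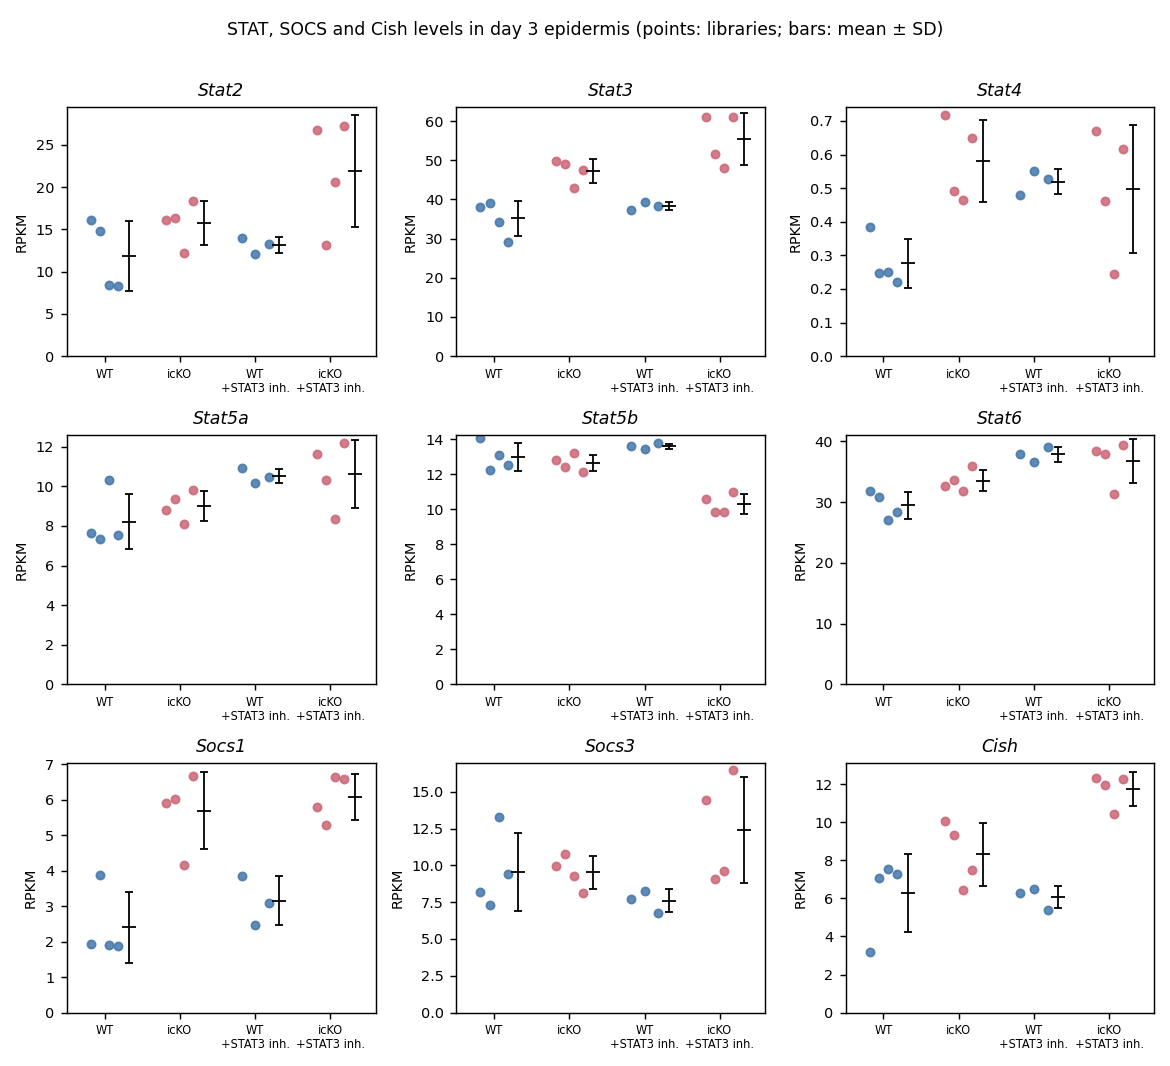
RPKM of the 9 genes (y axis) in the 15 day 3 epidermis libraries, by genotype and STAT3 inhibitor (x axis). Points are libraries and bars are mean ± SD. Stat3 and Socs1 in the 4 icKO libraries lie above all 4 WT libraries, and Stat5b is lowest in the icKO libraries given the inhibitor.

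Dlx3 deletion in the day 3 epidermis was compared first, because it asks which STAT and SOCS genes change soon after the gene is lost. Dlx3 itself overlapped between these groups and did not pass (change −0.87, limma adjusted p = 0.108). Stat3 and Socs1, a SOCS protein that inhibits JAKs, rose. These were 2 of 8 genes tested, both higher, while 12.8% of all 13095 genes tested passed the threshold (adjusted p under 0.05 in limma) 9.12% as higher and 3.7% as lower. The median change of the 8 genes was 0.29 (log2 of RPKM + 1), against 0.036 over all genes.

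Stat3 was at 38.1, 39.1, 34.2 and 29.2 RPKM in WT libraries a to d and at 49.8, 49.2, 42.9 and 47.5 RPKM in icKO libraries a to d. Every icKO library was above every WT library, as it was for 11.3% of genes in either direction. The means of 47.3 ± 3.13 and 35.1 ± 4.5 RPKM (SD, n = 4 each) had a ratio of 1.35, and the change was 0.43 ± 0.10 (SE, log2 of RPKM + 1; limma adjusted p = 0.0163). Leaving out icKO library a or icKO library b ended the call (adjusted p = 0.0617 and 0.0604), as did a fit of the compared groups only (0.0788) and counting the closest pairs as 1 sample each (0.114), within a range of 0.00393 to 0.114 over 23 alternatives.

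Socs1 was at 1.94, 3.89, 1.90 and 1.88 RPKM in WT and at 5.92, 6.03, 4.17 and 6.68 RPKM in icKO. WT library b, also the lowest in Dlx3, stood above the other 3 WT libraries. It was just below icKO library c, the lowest of its group in Socs1, and the groups did not overlap. The ratio of means was 2.37, and the change was 1.00 ± 0.17 (SE; limma adjusted p = 0.00475). It missed the threshold with the closest pairs counted as 1 sample (adjusted p = 0.0637) and in a fit of the 8 compared libraries alone (0.0552), the upper end of a range from 1.16e-05 to 0.0637 over 23 alternatives. The authors' deposited table gave ratios of 2.4 for Socs1 and 1.35 for Stat3.

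The other 6 genes did not pass. Stat6 was at 27.01 to 31.8 RPKM in WT and at 31.9 to 35.9 RPKM in icKO, without overlap but with a change of only 0.18 ± 0.08 (limma adjusted p = 0.128). Cish, which blocks STAT5 docking at receptors, was at 3.21, 7.09, 7.54 and 7.30 RPKM in WT and at 10.05, 9.32, 6.44 and 7.51 RPKM in icKO, with WT library a lowest and overlapping groups (change 0.39, adjusted p = 0.185). Stat2 changed by 0.43 (95% interval −0.08 to 0.94), Stat5a by 0.13 (−0.12 to 0.37), Stat5b by −0.03 (−0.15 to 0.08) and Socs3 by 0.02 (−0.38 to 0.42), and each of these 4 overlapped between genotypes. Stat4, untested, was at 0.221 to 0.385 RPKM in WT and at 0.466 to 0.717 RPKM in icKO.

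The lists of the wider pathway are read against the 9.12% of all genes that were higher and the 3.7% that were lower. None of the 4 JAK kinases passed (Jak1 0.13, adjusted p = 0.317). Of 14 other regulators 2 rose, the SOCS family gene Socs5 by 0.37 (adjusted p = 0.00631) and the phosphatase gene Ptpn1 by 0.31 (adjusted p = 0.0304). The regulators were close to the background, with a median change of 0.0545 against 0.036 over all genes. Of 22 cytokine receptor genes 6 rose, among them Il4ra, the receptor of IL-4 and IL-13, by 0.77 (adjusted p = 0.0081) and Il7r by 0.78 (adjusted p = 0.0146), and 1 fell. Il4ra is counted in the STAT6-linked list as well.

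Lists of genes linked to STATs, drawn up without regard to the direction of that link, were counted the same way. Of 17 STAT3-linked genes 8 rose and none fell, with a median of 0.44. Bcl3, a partner of NF-kB, went from 2.11 to 6.43 RPKM in WT to 6.54 to 10.9 RPKM in icKO (change 1.05, adjusted p = 0.00891). Timp1, a metalloproteinase inhibitor, rose by 1.09 (adjusted p = 0.0149). Of 8 STAT6-linked genes 5 rose and 1 fell, and the allergic-inflammation gene Retnla went from 144 to 232 RPKM to 329 to 543 RPKM (change 1.30, adjusted p = 0.00251), while the chemokine gene Ccl22 rose by 2.19 (adjusted p = 0.00465). Of 6 STAT5-linked genes Il2ra (0.73, adjusted p = 0.0255) and Igf1 (0.80, adjusted p = 0.0334) rose. Of 18 interferon genes linked to STAT2 none passed, with a median of 0.34.

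Markers of other cells moved in the same comparison. Mast cell markers summed to 131 to 152 RPKM in icKO and 75.4 to 104 RPKM in WT, with 5 of the 5 tested of 6 markers higher and Fcer1a at 0 in WT. Neutrophil markers summed to 41.7 to 187 RPKM against 6.07 to 35.9 RPKM, with 2 of 4 tested higher and Ly6g at 0 in icKO. Their part in the changes of Stat3, Socs1 and the linked genes was not tested. With quantile normalization the share of all calls that were higher went from 71.1% to 46%, and Stat3 and Socs1 still passed.

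In inhibitor-treated epidermis Stat3, Socs1, Socs3 and Cish rose and Stat5b fell in icKO, which is 5 of 8 tested against a background of 34% of 13241 genes, 19.9% as higher and 14.1% as lower. The WT group here was another set of 3 libraries, so the vehicle and inhibitor comparisons share no library. The median change of the 8 genes was 0.56 and that of all genes 0.015.

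Stat3 was at 37.2, 39.3 and 38.3 RPKM in WT given the inhibitor and at 61.0, 51.6, 48.0 and 61.1 RPKM in icKO given it. The groups were well separated, as were those of 52.4% of genes, and the change was 0.52 ± 0.11 (ratio 1.45, limma adjusted p = 0.0027). Socs1 was at 3.87, 2.48 and 3.10 RPKM against 5.79, 5.298, 6.64 and 6.59 RPKM, again without overlap (change 0.78 ± 0.19, ratio 1.93, adjusted p = 0.00645). Both were thus higher in icKO with the inhibitor as well as without it.

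Cish was at 6.298, 6.50 and 5.41 RPKM in WT and at 12.3, 11.96, 10.4 and 12.3 RPKM in icKO, a ratio of 1.94 with no overlap. Its change was 0.85 ± 0.21 (limma adjusted p = 0.00739), and it missed the threshold with the closest pairs counted as 1 sample (adjusted p = 0.0733) within a range of 0.000132 to 0.421 over 22 alternatives. Socs3, which binds gp130 and limits STAT3 signals, was at 7.74, 8.29 and 6.74 RPKM in WT and at 14.4, 9.09, 9.65 and 16.5 RPKM in icKO. Libraries a and d of the icKO group, the pair closest to each other, were the high ones, and the change of 0.61 ± 0.20 (adjusted p = 0.0327) was lost with that pair counted as 1 sample (change 0.47, adjusted p = 0.217). It was also lost without WT library a, b or c (adjusted p = 0.077, 0.0529 and 0.119) and without icKO library a or d (0.0838 and 0.0886) and with no filter on low values (0.0554), so Socs3 rests on single libraries, with a range of 0.0154 to 0.973 over 22 alternatives.

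Stat5b was the one member that fell. Its level was 13.6, 13.5 and 13.8 RPKM in the WT libraries and 10.6, 9.83, 9.84 and 11 RPKM in icKO, a difference larger than the spread of either group. The change was −0.37 ± 0.06 (ratio 0.757, limma adjusted p = 0.000649), and it passed under all 22 alternatives (adjusted p = 0.000455 to 0.0422). Its close paralog Stat5a was at 10.2 to 10.9 RPKM in WT and 8.35 to 12.2 RPKM in icKO and did not pass (change 0.00, 95% interval −0.26 to 0.26). Stat2 was at 12.1 to 14 RPKM against 13.1, 20.6, 26.7 and 27.2 RPKM and missed the threshold (change 0.65, adjusted p = 0.0648), passing without icKO library b (change 0.86, adjusted p = 0.0149), without vehicle-treated WT library a, which shares the fit (adjusted p = 0.0498), or in a fit of the compared groups only (0.0397), with a range of 0.0149 to 0.269 over 22 alternatives. Stat6 did not pass (change −0.05, adjusted p = 0.694).

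With a term for sex in the model the comparison kept 1 member, Stat5b (change −0.39, adjusted p = 0.0422). The changes of Stat3 (0.56, adjusted p = 0.0849), Socs1 (1.03, 0.0561) and Cish (0.47, 0.421) then missed the threshold, and Socs3 changed sign (−0.02, 0.973). Every inhibitor-treated WT library carried Y-linked RNA and every inhibitor-treated icKO library did not, so within this comparison sex markers and genotype cannot be told apart. Only the vehicle-treated WT group held libraries with Xist alone (c) and with Y-linked RNA alone (a, b and d). The contrast of Xist with Y-linked RNA therefore rested on that single WT library c, here and in the other day 3 epidermis comparisons that hold WT. Vehicle-treated icKO library c carried both markers and was a class of its own, so the sex term also took it out of the fit. For the inhibitor in icKO, where all other libraries carried Xist alone, the term did only that.

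The wider pathway in inhibitor-treated skin is read against the 19.9% of all genes that were higher and the 14.1% that were lower. Of 18 STAT2-linked interferon genes 13 rose and none fell, with a median of 0.97. Isg15 was at 3.27 to 4.202 RPKM in WT and 8.28 to 55.4 RPKM in icKO (change 2.59, adjusted p = 0.0027), and Ifit1 rose by 2.18 (adjusted p = 0.00768). Of 18 STAT3-linked genes 11 rose and 2 fell, led by Fosl1, an AP-1 subunit gene (1.39, adjusted p = 0.000356), and Bcl3 (1.38, adjusted p = 0.000692). Of 9 STAT6-linked genes 3 rose, among them Retnla (2.05, adjusted p = 3.34e-05) and Chil3 (1.13, adjusted p = 0.000946), and 1 fell. Fosl1 and Chil3 were not tested between the WT groups, where too few libraries reached 1 RPKM. They passed the filter on low values here only with icKO libraries, where they were higher. Receptors went the other way, with 9 of 22 lower and 2 higher. Il6ra, the IL-6 receptor subunit, was at 26.7 to 29.7 RPKM in WT and 14.7 to 16.2 RPKM in icKO (change −0.87, adjusted p = 0.000949), and Ifngr1 fell by 0.66 (adjusted p = 0.00117).

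Among regulators 2 rose and 3 fell of 14, with Socs5 at 0.47 (adjusted p = 0.000556) and Pias1 at −0.40 (adjusted p = 0.00216). Of the JAK genes Tyk2 fell by 0.31 (adjusted p = 0.0295) and the other 3 did not pass. Of 6 STAT5-linked genes Bcl6, a transcriptional repressor, fell by 0.59 (adjusted p = 0.0022) and Il2ra rose by 0.57 (adjusted p = 0.0424). In these libraries keratinocyte markers summed to 10980 to 14810 RPKM in icKO and 5361 to 5772 RPKM in WT (4 of 6 higher), fibroblast markers to 2598 to 3799 against 8755 to 10580 RPKM (4 of 6 lower), Langerhans cell markers to 1455 to 2101 against 3423 to 4046 RPKM (3 of 4 lower, 1 higher) and neutrophil markers to 136 to 336 against 29.2 to 31.7 RPKM (2 of 4 tested higher, 1 lower). None of those 4 lists had a marker at 0 in either group, and their part in the members' changes was not tested.

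The inhibitor itself was compared within each genotype, and the 2 comparisons share libraries with the deletion comparisons above. In icKO epidermis Stat5b fell by 0.27 on the log2 scale, from 12.1 to 13.2 RPKM with vehicle to 9.83 to 11 RPKM with the inhibitor (SE 0.06, limma adjusted p = 0.0209). It was 1 of 8 tested, against a background of 5.56% of 13074 genes, 2.81% as higher and 2.75% as lower. The call was lost without vehicle-treated icKO library a, b or c (adjusted p = 0.0638, 0.0588 and 0.065), without inhibitor-treated icKO library b (0.0558), without vehicle-treated WT library b and icKO library c together (0.0546) and with the closest pairs counted as 1 sample (0.18), within 0.0134 to 0.18 over 23 alternatives. Cish was at 6.44 to 10.05 RPKM with vehicle and 10.4 to 12.3 RPKM with the inhibitor, without overlap, where 19.8% of genes did not overlap, and did not pass (change 0.47, adjusted p = 0.156). It passed only without vehicle-treated WT library a, which shares the fit (adjusted p = 0.0279, within 0.0279 to 0.371 over 23 alternatives).

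Stat3 mRNA did not pass for the inhibitor in either genotype, although its 95% interval in icKO lay above 0. The change was 0.22 (95% interval 0.01 to 0.43, adjusted p = 0.186) in icKO and 0.13 (−0.10 to 0.36, adjusted p = 0.417) in WT. Socs3, often used as a readout of STAT3 activity, changed by 0.31 (−0.09 to 0.71) in icKO and by −0.27 (−0.70 to 0.16) in WT, and Socs1 by 0.09 (−0.28 to 0.46) and 0.31 (−0.09 to 0.71). None of these passed.

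In WT epidermis Stat6 rose with the inhibitor, as 1 of 8 tested against a background of 18.8% of 13211 genes, 10.9% as higher and 7.86% as lower. It was at 27.01 to 31.8 RPKM with vehicle and 36.6 to 39.0 RPKM with the inhibitor (ratio 1.28), without overlap, where 27.7% of genes did not overlap (change 0.35 ± 0.08, adjusted p = 0.0141). The call was lost without inhibitor-treated WT library a or c (adjusted p = 0.0619 and 0.0656), in a fit of the compared groups only (0.0684) and with the closest pairs counted as 1 sample (0.122), within 0.00612 to 0.122 over 23 alternatives. Stat5a was at 7.65, 7.36, 10.3 and 7.55 RPKM with vehicle, with library c apart, and at 10.9, 10.2 and 10.5 RPKM with the inhibitor. It did not pass (change 0.33, limma adjusted p = 0.0709). It passed without WT library c (0.44, adjusted p = 0.0268) or with a term for sex, which rests on that same library (0.0271). It also passed without inhibitor-treated icKO library c, which shares the fit (adjusted p = 0.0401), within 0.0268 to 0.233 over 23 alternatives. Socs1 passed without WT library b (0.50, adjusted p = 0.021, within 0.00727 to 0.595 over 23 alternatives).

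Macrophage markers summed to 1230 to 1449 RPKM with the inhibitor in WT and 184 to 1119 RPKM with vehicle (6 of 7 higher, none at 0), and Langerhans cell markers to 3423 to 4046 against 985 to 2285 RPKM (3 of 4 higher, none at 0); their part in the change of Stat6 was not tested. In the same comparison Tyk2 (0.44, adjusted p = 0.013) and Jak3 (0.53, adjusted p = 0.0352) rose, as did 9 of 22 receptors such as Il2rg, the shared cytokine receptor chain (0.96, adjusted p = 0.0129), while Il22ra1, the IL-22 receptor subunit of keratinocytes, fell by 0.80 (adjusted p = 0.00447). Of 14 regulators 4 rose, with Sh2b3 at 0.69 (adjusted p = 0.00835) and Pias1 at 0.35 (adjusted p = 0.0129), and 1 fell. Over all genes in this comparison 10.9% were higher and 7.86% lower. Of the linked genes Icam1 (STAT3 list, 1 of 17; 0.55, adjusted p = 0.0242), Igf1 (STAT5 list, 1 of 6; 1.08, adjusted p = 0.0112), and 3 of 8 of the STAT6 list, including Ccl22 (1.69, adjusted p = 0.0152) and Ccl11 (0.66, adjusted p = 0.0169), rose, and none of 17 interferon genes passed. With quantile normalization the share of all calls that were higher went from 58.1% to 47.3%.

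With the inhibitor in icKO, where 5.56% of all genes passed, 5 genes of these lists did. The receptor genes Ghr (−0.42, adjusted p = 0.035) and Il6ra (−0.51, adjusted p = 0.0492), the survival gene Bcl2l1 (−0.52, adjusted p = 0.038) and Bcl6 (−0.51, adjusted p = 0.0234) fell, Fosl1 rose (0.71, adjusted p = 0.0425), and no JAK, regulator, STAT6-linked or interferon gene passed. Fosl1, untested in vehicle-treated skin, passed the filter on low values only with inhibitor-treated libraries. Keratinocyte markers summed to 10980 to 14810 RPKM with the inhibitor and 6037 to 10730 RPKM with vehicle (1 of 6 higher), and fibroblast markers to 2598 to 3799 against 3998 to 9759 RPKM (none of 6 passed), with none at 0, and their part in the fall of Stat5b was not tested.

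Whether the deletion effect depended on the inhibitor was tested with an interaction term, for which 2.14% of 13563 genes passed, 0.73% as higher and 1.41% as lower. Of those calls 34.1% were higher, and 50.5% with quantile normalization. Of the 8 genes only Stat5b passed, and barely (−0.34 ± 0.08, limma adjusted p = 0.0498). That call was lost with a pseudocount of 0.1 RPKM (0.0503), no filter, quantile normalization or no trend. It was also lost with a sex term and with the closest pairs counted as 1 sample. Over 22 alternatives its adjusted p ran from 0.0199 to 0.315. Leaving out any 1 of 12 of the 15 libraries ended the call as well. The libraries were vehicle-treated WT c (0.0648) and d (0.0761), vehicle-treated icKO a (0.102), b (0.101) and c (0.0775), inhibitor-treated WT a (0.126), b (0.0798) and c (0.144), and inhibitor-treated icKO a (0.0732), b (0.0841), c (0.0869) and d (0.0624). Socs3 (0.58, 95% interval −0.01 to 1.17) and Cish (0.46, −0.16 to 1.07) did not pass, although both passed with the inhibitor and not without it; Cish passed without vehicle-treated WT library a (0.70, adjusted p = 0.0282, within 0.0282 to 0.67). Stat3 (0.09, adjusted p = 0.739) and Socs1 (−0.22, adjusted p = 0.626) did not pass either. Without vehicle-treated WT library b and icKO library c together Socs1 passed (−0.53, adjusted p = 0.0459, within 0.0459 to 0.874). Of the pathway lists 1 gene passed, Il22ra1 (0.90, adjusted p = 0.038).

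The genes whose levels followed each member most closely over the 15 day 3 epidermis libraries were found by Pearson's r of log2(RPKM + 1) among 13117 genes, as a description of libraries that share genotype, treatment, sex markers and closest pairs. For Stat3 they were Srxn1 (r = 0.966), Pdss1 (0.962) and Ptpn12 (0.962). For Socs1 they were Sprr2d (0.964), Krt6b (0.961) and Krt16 (0.96), which encode a cornified envelope protein and keratins of activated keratinocytes. For Socs3 they were Zbtb49 (0.879), Usp10 (0.853) and Slco2a1 (0.849), and for Cish Kars (0.935), Eif2d (0.934) and Grwd1 (0.934). For Stat2, Stat5a, Stat5b and Stat6 they were named after their values were seen. For Stat2 they were the interferon-induced genes Zbp1 (0.978), Parp12 (0.974) and Mx1 (0.973), for Stat5a Prr14 (0.946), Tmem129 (0.915) and Zfp746 (0.911), for Stat5b Stk10 (0.961), Ifi205 (0.951) and Kctd12 (0.940), and for Stat6 Ptpra (0.963), Fgr (0.961) and Tmed10 (0.959). Among the members Stat3 went with Stat2 and with Socs1 (both r = 0.861), and Stat5b went against Cish (r = −0.817) and Stat3 (r = −0.655).

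**Figure D2:**
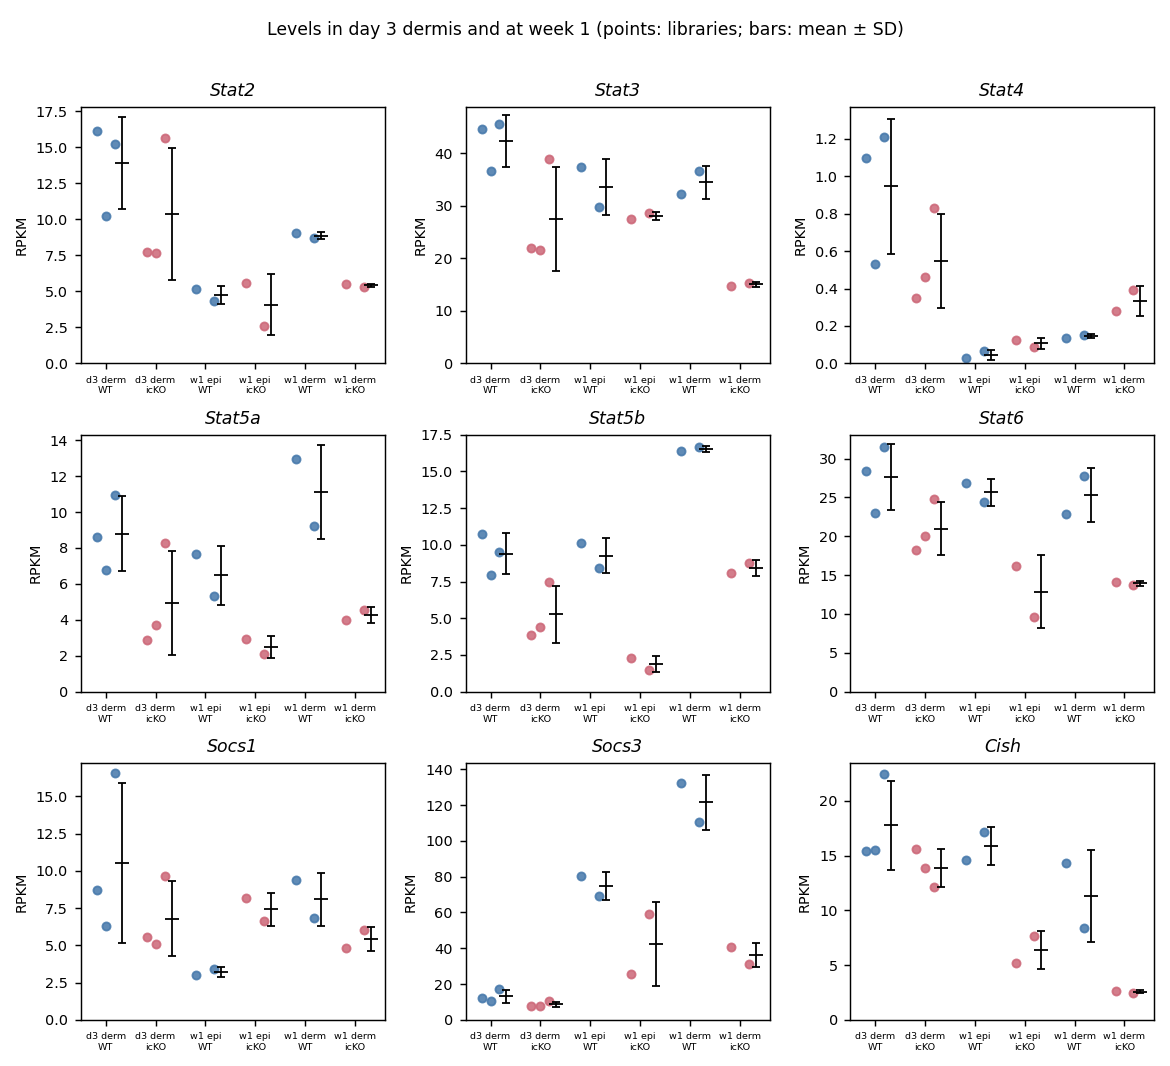
RPKM of the 9 genes (y axis) in day 3 dermis (d3 derm), week 1 epidermis (w1 epi) and week 1 dermis (w1 derm) by genotype (x axis); points are libraries and bars mean ± SD. In day 3 dermis libraries a and b labelled icKO lie below all 3 WT libraries for Stat2, Stat3, Stat5a, Stat5b, Stat6, Socs1 and Socs3 but not for Cish. At week 1 Stat5b, Stat6, Stat5a, Cish, Stat3 and Socs3 are lower in both icKO libraries of both tissues. Of these, Stat3 and Socs3 did not pass in epidermis.

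In day 3 dermis no member passed, and none of 13017 genes did (0% called by limma), although 2 of 8 members and 12.6% of genes had an unadjusted p under 0.05. Stat3 was at 44.7, 36.6 and 45.6 RPKM in the libraries labelled WT and at 22, 21.6 and 38.9 RPKM in those labelled icKO (change −0.65 ± 0.25, adjusted p = 0.389). Libraries a and b of the icKO label were low and library c lay within the WT range. Stat5b was at 10.8, 7.93 and 9.53 RPKM against 3.89, 4.43 and 7.47 RPKM, without overlap (change −0.77 ± 0.24, adjusted p = 0.375), as for 17.6% of genes. Stat5a followed the same pattern, at 8.62, 6.80 and 10.95 RPKM against 2.87, 3.69 and 8.26 RPKM (change −0.81, adjusted p = 0.40).

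Library c of the icKO label was 1.22 to 1.28 (SD of log2 difference) from a and b, which differed from each other by 0.279. Without it, Stat3 (−0.92, adjusted p = 0.0212), Stat5a (−1.18, 0.0263) and Stat5b (−1.01, 0.0223) were lower in the libraries labelled icKO, as 3 of 8 members with 23.8% of genes called. Over 12 alternatives the adjusted p reached 0.881 for each of them, so these 3 calls rest on which library is left out. These are also the libraries in which Dlx3 was at 64.3 and 65.9 RPKM, against the label. The remaining members had changes of −0.32 to −0.52, and the median over the 8 tested was −0.52, against −0.01 over all genes. Muscle markers summed to 2344 to 7446 RPKM in the icKO label and to 9123 to 15610 RPKM in the WT label, with none at 0. Hair shaft keratins summed to 6685, 8111 and 1.87 RPKM in libraries a to c of the icKO label and to 4.47, 1767 and 1.22 RPKM in those of the WT label, with none of 8 past the threshold and none at 0. The libraries high in hair shaft keratins were thus the 3 highest in Dlx3. The part of either marker list in the members' values was not tested. No gene of the pathway lists passed.

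At week 1 the epidermis of icKO mice had less Stat5b, Stat5a, Stat6 and Cish mRNA and more Socs1 mRNA than WT. These were 5 of 8 tested, 1 higher and 4 lower, where 55.3% of 11796 genes passed, 11.7% as higher and 43.6% as lower. The median change was −0.95 over the 8 members and −0.50 over all genes, so changes are also given relative to that median; quantile normalization brought it to −0.08 and the share of calls that were higher from 21.1% to 45.4%. With 2 libraries a group, each group's spread rests on a single difference, and without either WT library none of the 8 members passed. The genotype field of 2 of these 4 libraries, 1 of each group, goes against its title, so every value of this comparison rests on the titles, whose genotypes the file headers also give.

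Stat5b was at 10.1 and 8.41 RPKM in the WT pair and 2.27 and 1.498 RPKM in the icKO pair, a ratio of 0.203. The WT libraries were both far above the icKO libraries, and the change was −1.84 ± 0.21, or −1.34 relative to the median of all genes (limma adjusted p = 0.00348). With quantile normalization it still passed (−1.22, adjusted p = 0.0107). Without WT library a or b it missed the threshold at a similar size (−1.72, adjusted p = 0.089, and −1.96, 0.0693), within 1.69e-21 to 0.089 over 10 alternatives.

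Socs1 was at 3.00 and 3.43 RPKM in the WT pair and 8.21 and 6.64 RPKM in the icKO pair, a ratio of 2.31 without overlap, as for 81.7% of genes. The change was 0.99 ± 0.19, or 1.49 relative to the median (adjusted p = 0.0105), and with quantile normalization it passed as well (1.45, adjusted p = 0.00617). Without WT library a or b its adjusted p was 0.148 and 0.106, within 1.24e-09 to 0.148 over 10 alternatives. The authors' deposited table listed 2 Socs1 transcripts with ratios of 2.12 and 4.40.

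Cish was at 14.6 and 17.1 RPKM in the WT pair and 5.19 and 7.65 RPKM in the icKO pair (change −1.20 ± 0.23, −0.71 relative to the median, adjusted p = 0.0106). Stat5a was at 7.65 and 5.32 RPKM against 2.93 and 2.07 RPKM (−1.09 ± 0.24, −0.60 relative, adjusted p = 0.0166). Stat6 was at 26.9 and 24.5 RPKM against 16.2 and 9.56 RPKM (−0.98 ± 0.27, −0.49 relative, adjusted p = 0.0314). None of these 3 overlapped between genotypes, but quantile normalization ended each call, with adjusted p = 0.0631 for Cish, 0.131 for Stat5a and 0.108 for Stat6, and testing with no filter on low values ended those of Stat5a (0.0541) and Stat6 (0.0818). Over 10 alternatives the adjusted p reached 0.121, 0.172 and 0.21 in that order, in each case without a WT library.

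Stat3 did not pass in week 1 epidermis, at 37.3 and 29.7 RPKM in the WT pair and 27.5 and 28.6 RPKM in the icKO pair (change −0.24 ± 0.18, 0.25 relative to the median, adjusted p = 0.292). Socs3 was at 80.1 and 69.4 RPKM against 25.6 and 59.0 RPKM and did not pass (−0.92 ± 0.40, adjusted p = 0.106), with icKO library a far below b. It passed in a fit of all 8 week 1 libraries (0.0484) and without library b (−1.51, adjusted p = 1.28e-14, within 1.28e-14 to 0.366). Stat2 was at 5.18 and 4.32 RPKM against 5.56 and 2.60 RPKM, so its icKO libraries lay on both sides of WT (−0.24, adjusted p = 0.556). Without icKO library a it passed (−0.67, adjusted p = 0.000373), and without library b its sign turned (0.19, adjusted p = 0.328), within 0.000373 to 0.858. Such small p-values come from fits that leave 1 library in a group. Stat4 was at 0.0262 and 0.0635 RPKM in the WT pair and 0.127 and 0.0869 RPKM in the icKO pair.

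The pathway lists in week 1 epidermis are read against the 43.6% of all genes that were lower and the median change of −0.50. The JAK genes other than Jak2 fell. Tyk2 was at 6.48 to 7.14 RPKM in WT and 1.67 to 2.29 RPKM in icKO (change −1.40, adjusted p = 0.00464), Jak1 fell by 0.82 (adjusted p = 0.0182) and Jak3 by 0.77 (adjusted p = 0.0196), and Jak2 rose by 0.53 (adjusted p = 0.041). Of 20 receptors 9 fell and 2 rose, led by the IL-20 family subunit Il20rb, at 96.3 to 100 RPKM in WT and 10.4 to 12.6 RPKM in icKO (−2.99, adjusted p = 0.00132), and by Il6ra, at 40.1 to 54.5 RPKM and 1.43 to 2.42 RPKM (−4.05, adjusted p = 0.00161). Of 14 regulators 7 fell, with the phosphatase gene Ptpn6 at −1.73 (adjusted p = 0.00348) and Socs7 at −1.40 (adjusted p = 0.00408), and 1 rose. For receptors and regulators the share lower was close to the background, with medians of −0.38 and −0.62.

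Linked genes split by list. Of 18 interferon genes only 9 passed the filter on low values. Of these 5 rose and none fell, with a median of 1.76 against −0.50 for all genes. The filter asked for 1 RPKM in as many libraries as 1 group holds. A gene low in WT could thus enter this list or another through its icKO values alone. Isg15 was at 3.82 to 4.17 RPKM in WT and 26.01 to 26.9 RPKM in icKO (change 2.46, adjusted p = 0.00165), and Bst2 rose by 2.11 (adjusted p = 0.00295). Of 8 STAT6-linked genes 5 rose, among them the macrophage gene Mrc1 (2.87, adjusted p = 0.03) and Il4ra (0.86, adjusted p = 0.0307). Of 18 STAT3-linked genes 7 rose and 5 fell, the smallest adjusted p being those of the immediate early genes Fos (−2.71, adjusted p = 0.00168) and Zfp36 (−2.04, adjusted p = 0.00178). Of 5 STAT5-linked genes Bcl6 (−1.98, adjusted p = 0.00235) and Ccnd2 (−1.74, adjusted p = 0.00484) were among 3 that fell, and 1 rose.

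Cell markers differed widely here. Neutrophil markers summed to 6698 to 10250 RPKM in icKO and 16.6 to 33.4 RPKM in WT (2 of 3 tested higher; the list includes S100a9, which keratinocytes can also make), and macrophage markers to 47.5 to 198 against 12.3 to 14.9 RPKM (4 of 6 tested higher). Langerhans cell markers summed to 141 to 143 against 559 to 725 RPKM (4 of 4 lower) and T cell markers to 4.52 to 15.2 against 42.9 to 46.0 RPKM (4 of 6 tested lower). Their part in the members' changes was not tested.

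In week 1 dermis all members that passed were lower in icKO, and these were 7 of 8: Stat2, Stat3, Stat5a, Stat5b, Stat6, Socs3 and Cish. The background was 49.3% of 12744 genes, 8.41% as higher and 40.9% as lower, and the median change was −1.02 over the 8 members and −0.38 over all genes. With quantile normalization the median of all genes was 0.00, the share of calls that were higher went from 17.1% to 48.9%, and 5 of 8 members passed, without Stat2 (adjusted p = 0.449) and Stat6 (0.061).

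Socs3 was at 132.5 and 110.5 RPKM in the WT pair and 40.8 and 31.4 RPKM in the icKO pair, a ratio of 0.297. Both icKO libraries were far below both WT libraries (change −1.73 ± 0.17, −1.35 relative to the median, limma adjusted p = 0.00196). Cish was at 14.3 and 8.36 RPKM against 2.67 and 2.47 RPKM, a ratio of 0.227, with WT libraries that differed by more than the icKO ones (−1.75 ± 0.24, −1.37 relative, adjusted p = 0.00298). The authors' deposited table gave ratios of 0.296 for Socs3 and 0.235 for Cish.

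Stat3 was at 32.3 and 36.7 RPKM in the WT pair and 14.7 and 15.4 RPKM in the icKO pair (−1.14 ± 0.14, −0.77 relative, adjusted p = 0.0022). Stat5a was at 12.9 and 9.25 RPKM against 3.97 and 4.57 RPKM (−1.18 ± 0.19, −0.81 relative, adjusted p = 0.00437), and Stat5b at 16.4 and 16.7 RPKM against 8.05 and 8.79 RPKM (−0.90 ± 0.14, −0.52 relative, adjusted p = 0.00388). These 3 genes, Socs3 and Cish had no overlap, as for 77.3% of genes, and passed under all 10 alternatives, with adjusted p up to 0.0258, 0.0358, 0.0403, 0.026 and 0.0339 for Stat3, Stat5a, Stat5b, Socs3 and Cish.

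Stat6 was at 22.8 and 27.8 RPKM in the WT pair and 14.2 and 13.7 RPKM in the icKO pair (−0.81 ± 0.15, adjusted p = 0.0066, 0.00404 to 0.061 over 10 alternatives). Stat2 was at 9.01 and 8.67 RPKM against 5.48 and 5.33 RPKM (−0.62 ± 0.14, −0.24 relative, adjusted p = 0.0129), and was lost without icKO library a (0.0664) or b (0.0944) and in a fit of all 8 week 1 libraries (0.0946), within 0.0116 to 0.449. Socs1, at 9.36 and 6.83 RPKM against 4.85 and 6.02 RPKM, did not pass (−0.49 ± 0.19, −0.12 relative, adjusted p = 0.0758), and passed without WT library b (−0.69, adjusted p = 0.0202, within 0.0202 to 0.902). Stat4 was at 0.136 and 0.153 RPKM in the WT pair and 0.278 and 0.390 RPKM in the icKO pair.

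**Figure D3:**
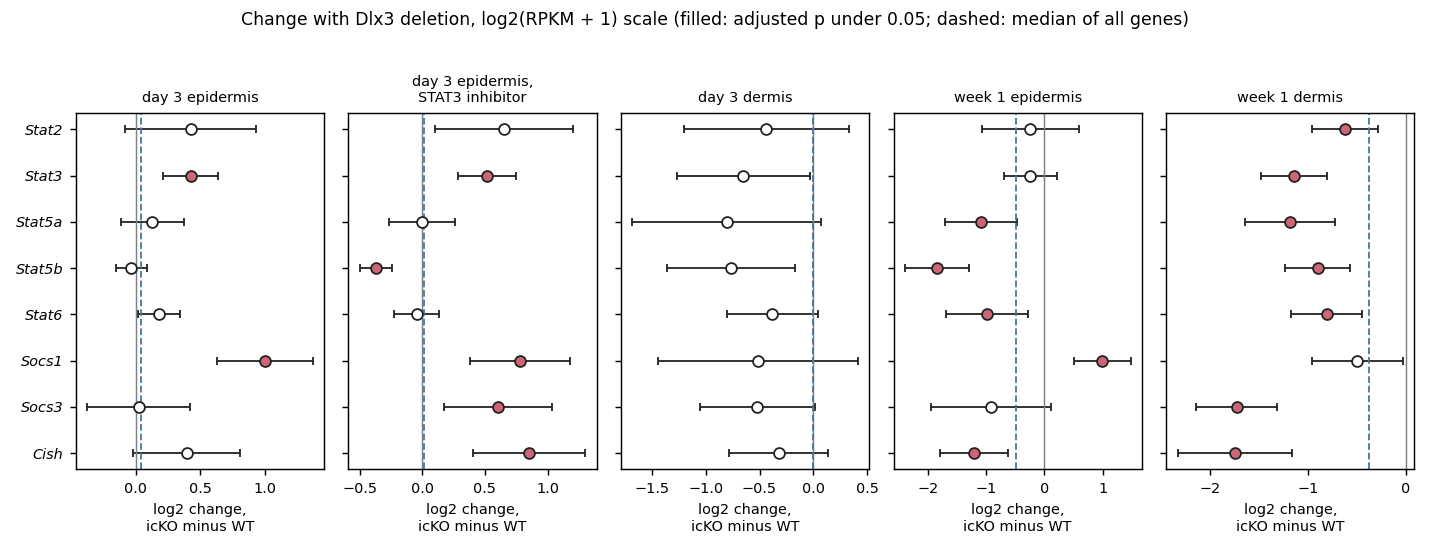
Change with Dlx3 deletion (icKO minus WT, log2 of RPKM + 1, x axis, with its own range in each panel) of the 8 tested genes (y axis) in the 5 deletion comparisons. Points are estimates, bars 95% intervals, filled points have a limma adjusted p under 0.05, and the dashed line is the median of all genes, at −0.50 in week 1 epidermis and −0.38 in week 1 dermis. Socs1 lies above 0 in the 3 epidermis panels and below 0 in both dermis panels, where it did not pass.

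The pathway lists in week 1 dermis are read against the 40.9% of all genes that were lower. Of 4 JAK genes 2 fell. Jak3, used with the shared cytokine receptor chain, was at 10.1 to 12.1 RPKM in WT and 4.23 to 4.55 RPKM in icKO (−1.16, adjusted p = 0.00285) and Tyk2 fell by 0.55 (adjusted p = 0.0318), while Jak1 (−0.24, adjusted p = 0.182) and Jak2 (−0.40, adjusted p = 0.307) did not pass. Of 14 regulators 8 fell, led by Pias4 (−1.18, adjusted p = 0.00246) and Pias3 (−0.97, adjusted p = 0.00342), inhibitors of STAT binding. Of 22 receptors 9 fell, among them Csf2rb (−1.59, adjusted p = 0.00196) and Il6st, the gp130 gene (−1.17, adjusted p = 0.00264), and 2 rose, a share lower that is close to the background.

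Of 17 STAT3-linked genes 13 fell and 1 rose, with a median of −0.89. Bcl2l1 was at 44.1 to 45.9 RPKM in WT and 15.1 to 16.3 RPKM in icKO (−1.46, adjusted p = 0.00196), and Junb fell by 1.73 (adjusted p = 0.00208). Of 6 STAT5-linked genes 4 fell, with Id1 at −1.35 (adjusted p = 0.00208) and the kinase gene Pim1 at −0.97 (adjusted p = 0.00399), and 2 rose. STAT6-linked genes split 2 and 2 of 8, with Il4ra at −1.002 (adjusted p = 0.00409) and Ccl11 at 0.75 (adjusted p = 0.00489). Of 16 interferon genes 1 rose, Oas1a (0.78, adjusted p = 0.0448), and none fell.

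Markers of epithelial and vessel cells were lower in the same libraries. Keratinocyte markers summed to 547 to 738 RPKM in icKO dermis and 2094 to 2795 RPKM in WT dermis (6 of 6 lower), hair shaft keratins to 2.18 to 3.81 against 79.8 to 86.0 RPKM (8 of 8 lower) and endothelial markers to 82.6 to 92.1 against 191 to 196 RPKM (5 of 5 lower). Macrophage markers summed to 859 to 1045 against 530 to 650 RPKM (3 of 6 tested higher), Langerhans cell markers to 2060 to 2439 against 1220 to 1574 RPKM (2 of 4 higher, 1 lower) and neutrophil markers to 19.9 to 26.2 against 6.74 to 9.05 RPKM (2 of 4 tested higher). None of these lists had a marker at 0, and their part in the falls of the members was not tested. In WT skin the Langerhans cell list summed higher in dermis than in epidermis (559 to 725 RPKM), with 2 of 4 markers higher in epidermis and 2 lower. Its sum in dermis thus need not stand for Langerhans cells.

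**Figure D4:**
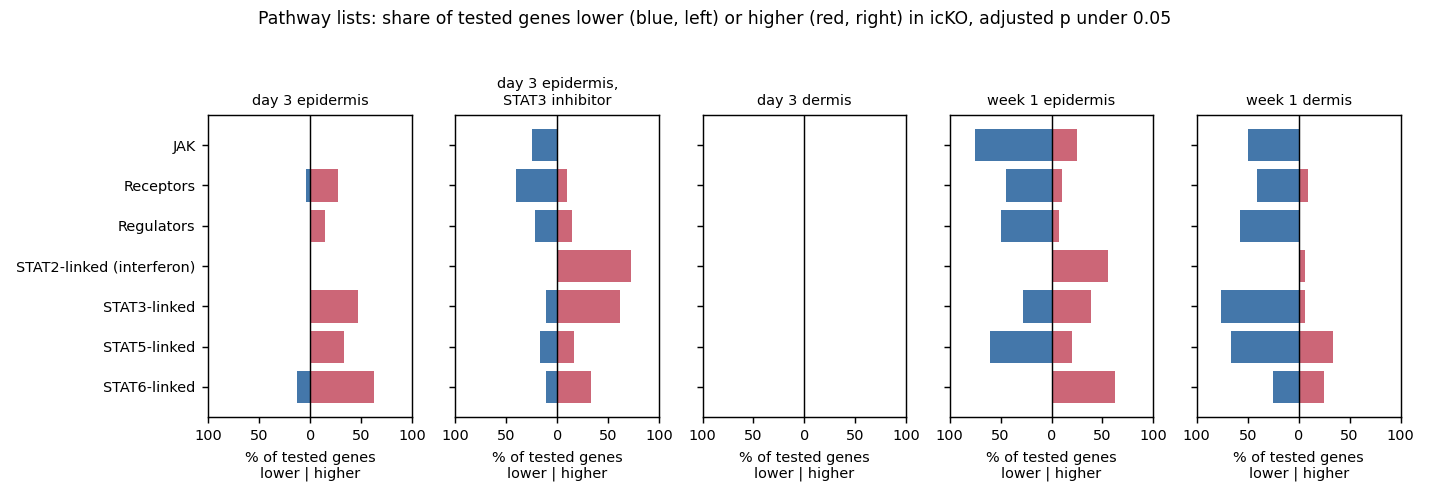
Percent of the tested genes of 7 pathway lists (y axis) that were lower (blue, to the left) or higher (red, to the right) in icKO at a limma adjusted p under 0.05 (x axis, percent), in the 5 deletion comparisons. Interferon genes were higher in inhibitor-treated day 3 epidermis (13 of 18) and in week 1 epidermis (5 of 9 tested, of 18 listed). STAT3-linked genes were lower in week 1 dermis (13 of 17). Day 3 dermis has no bars because no gene passed.

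The tissues themselves were compared in WT skin at week 1. Stat2, Stat5a, Stat5b and Socs1 were lower in epidermis than in dermis, as 4 of 8 tested, where 59.3% of 13108 genes passed, 25.5% as higher and 33.9% as lower. Socs1 was at 3.00 and 3.43 RPKM in epidermis and 9.36 and 6.83 RPKM in dermis (change −1.10 ± 0.20, limma adjusted p = 0.00228), and it passed under all 13 alternatives (up to 0.0229). Stat5b was at 10.1 and 8.41 against 16.4 and 16.7 RPKM (−0.78 ± 0.18, adjusted p = 0.00711), and was lost only without WT epidermis library b (0.0597, within 0.00144 to 0.0597 over 13 alternatives). Neither gene overlapped between tissues, as for 84.1% of genes.

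Stat2 (−0.78, adjusted p = 0.0363) and Stat5a (−0.69, adjusted p = 0.0346) were nearer the threshold. Stat2 missed it in the fits without WT epidermis library a (0.0846) or b (0.169), WT dermis library a (0.12) or b (0.11), or icKO dermis library a (0.0615) or b (0.0614), with a pseudocount of 0.1 RPKM (0.0513) or with no filter (0.0708), within 0.00132 to 0.169. Stat5a missed it without WT epidermis library b (0.213), WT dermis library a (0.183) or icKO dermis library a (0.0573) or b (0.0572), or with no filter (0.0629), within 0.0169 to 0.213. Stat3 (−0.05, 95% interval −0.41 to 0.32) and Stat6 (0.03, −0.52 to 0.57) had changes near 0. Socs3 (−0.69, adjusted p = 0.121) passed without icKO epidermis library a (0.00603) or b (0.00616), within 0.00603 to 0.339, and Cish (0.49, adjusted p = 0.142) passed without WT dermis library a (0.85, adjusted p = 0.0305, within 0.0305 to 0.677). With quantile normalization the share of all calls that were higher in epidermis went from 42.9% to 54%.

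Of 16 interferon genes 14 were lower in epidermis and none higher, led by Bst2 (−3.79, adjusted p = 5.39e-06) and Ifit3 (−3.17, adjusted p = 9.06e-06). Jak1 was higher (0.59, adjusted p = 0.0156) and Jak3 lower (−2.01, adjusted p = 5.64e-05). Of 22 receptors 5 were higher, with Il6ra (2.99, adjusted p = 4.33e-05) and Il20rb (2.74, adjusted p = 5.45e-05) first, and 11 lower. Regulators split 3 and 2 of 14, with Socs2, a growth hormone feedback gene, at −4.13 (adjusted p = 0.000129) and Sh2b3 at −1.17 (adjusted p = 0.00115). The STAT3 list split 7 and 7 of 18 (Fosl1 3.89, adjusted p = 4.21e-06; Lcn2 −3.02, adjusted p = 0.00103). The STAT5 list split 3 and 1 of 5 (Bcl6 1.61, adjusted p = 0.000478; Igf1 −4.15, adjusted p = 1.66e-05) and the STAT6 list 1 and 6 of 8 (Ccl11 −4.33, adjusted p = 8.62e-06; Retnla −5.26, adjusted p = 0.000303). Keratinocyte markers were higher in epidermis (6 of 6) and fibroblast markers lower (6 of 6), and endothelial markers summed to 0.292 to 0.564 RPKM against 191 to 196 RPKM.

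Whether the deletion effect differed between tissues at week 1 was tested over all 8 libraries, where 32.5% of 13539 genes passed, 17.2% as higher and 15.3% as lower. It differed for 3 of 8 members. For Socs1, up in epidermis and not changed past the threshold in dermis, the dermis effect minus the epidermis effect was −1.49 ± 0.28 (limma adjusted p = 0.00818, up to 0.0468 over 13 alternatives). For Stat3, lower in dermis, it was −0.90 ± 0.22 (adjusted p = 0.0196), and it was lost without WT epidermis library b (0.0792), WT dermis library b (0.0601) or icKO dermis library a (0.0764) or b (0.0615), within 0.0168 to 0.0792. For Stat5b, whose fall was larger in epidermis, it was 0.94 ± 0.25 (adjusted p = 0.0269), and it was lost without WT epidermis library a (0.11) or b (0.0586), WT dermis library a (0.0689) or b (0.0667), or icKO dermis library a (0.075) or b (0.0919), within 0.00612 to 0.11.

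The other 5 members did not pass. Socs3 (−0.81, adjusted p = 0.242) passed without icKO epidermis library a (−1.40, adjusted p = 0.00581) and Stat2 (−0.38, adjusted p = 0.47) without icKO epidermis library b (−0.81, adjusted p = 0.0224), with ranges of 0.00581 to 0.541 and 0.0224 to 0.856 over 13 alternatives. Stat5a (−0.09), Stat6 (0.17) and Cish (−0.54) had intervals that include 0. Of the lists, 9 of 18 STAT3-linked genes had a lower effect in dermis and 2 a higher one (Lcn2 −5.97, adjusted p = 0.00147; Bcl3 −2.91, adjusted p = 0.00172), as did 6 of 16 interferon genes, with no higher one (Isg15 −2.48, adjusted p = 0.00113; Bst2 −2.20, adjusted p = 0.0023). STAT6-linked genes gave 2 lower of 9 (Il4ra −1.87, adjusted p = 0.0042; Chil3 −6.07, adjusted p = 0.0476). Receptors gave 6 higher and 4 lower of 22 (Ghr 3.02, adjusted p = 0.00177; Il6ra 2.96, adjusted p = 0.00183), and regulators 2 higher and 1 lower of 14 (Ptpn6 1.67, adjusted p = 0.0042; Socs2 −2.59, adjusted p = 0.0179). Tyk2 (0.85, adjusted p = 0.035), Bcl6 (1.24, adjusted p = 0.0207) and Id1 (−0.93, adjusted p = 0.044) passed as well.

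In the transcript tables some members had more than 1 entry, and for some the entries did not move alike. Stat3 had 3 entries, and the leading one held 46.4% to 49.3% of the gene in each group of the transcript tables. At week 1 the leading of 2 Stat5b entries held 98.1% of the gene in WT epidermis and 95.5% in icKO epidermis, and the authors' deposited table gave ratios of 0.194 and 0.514 for the 2 entries. Socs1 had 2 entries, of which the leading one held 83.2% of the gene in WT dermis and 95.6% in icKO dermis at week 1. The authors' deposited table gave ratios of 0.775 and 0.179 for them, so the minor Socs1 entry, at 1.36 RPKM in WT, was the lower one. In day 3 dermis the 2 Stat5a entries differed in direction, with ratios of 0.402 and 1.26 in the authors' deposited table, and the leading entry held 83.7% of the gene in the WT label and 65.1% in the icKO label.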

How the data were processed

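The authors deposited RPKM per gene (day 3 epidermis) or per transcript (day 3 dermis, week 1), and TopHat2 2.1.0, Partek and mm10 appear in the submitters' processing notes. Not given in the sources used here were the strand setting, the split of shared reads and the deleted Dlx3 exons. The authors' deposited ratio (a linear fold between group means) is quoted only where named. The genotype field of 2 of the 4 week 1 epidermis samples goes against the title, and the title was followed. Transcripts of a gene were summed, and the 3 tables, normalized separately, were never tested against each other. Tests used limma 3.58.1 (R 4.3.3) on log2(RPKM + 1) with an intensity trend, for genes reaching 1 RPKM in at least as many compared libraries as the smaller group holds, with Benjamini-Hochberg adjustment over all of them and a threshold of 0.05. In any comparison a gene low in 1 group could pass this filter through the other group alone. Day 3 epidermis used 1 fit of 15 libraries, and the week 1 deletion fits held 1 tissue each. Fold changes on this scale understate the change of low genes. RPKM steps did not give whole reads, so no count test was run and depth enters only through totals. The procedure was tested on simulated data. Named were the 9 genes, every JAK, and in other lists the 2 genes with the smallest adjusted p where a list had a call. The members and lists were chosen with earlier results of these data known. Alternatives were another pseudocount, no filter, quantile normalization, no trend, other fits, a sex term, the leading transcript and each library left out.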

Additional observations from a re-analysis of the deposited data

Results flagged for a closer look

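Among 27 groups of 4 day 3 epidermis values, 3 had a single library far from the other 3, where chance gives about 1 in 20. They were Stat5a at 10.33 RPKM in WT library c, Socs1 at 3.889 RPKM in WT library b and Cish at 3.207 RPKM in WT library a, all without inhibitor.

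A test of the difference itself passed for 4 deletion effects. With the inhibitor against without it, the difference for Stat5b was −0.3364 (log2), a call that was lost under most alternatives. Between week 1 tissues, dermis minus epidermis, it was −0.9005 for Stat3, 0.9412 for Stat5b and −1.4857 for Socs1.

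Other deletion effects had groups that did not overlap and went opposite ways in different data sets, and the difference was not tested where the tables were normalized separately. Groups did not overlap for 11.3% of all genes in day 3 epidermis, 52.4% with the inhibitor, 81.7% in week 1 epidermis and 77.3% in week 1 dermis. Stat6 in day 3 epidermis, Stat3 and Socs3 in week 1 epidermis and Socs1 in week 1 dermis did not pass. Relative to the median of all genes, Stat3 in week 1 epidermis had the opposite sign (0.25). Stat3 changed by 0.4253 in day 3 epidermis, 0.5165 with the inhibitor, −0.2414 in week 1 epidermis and −1.1419 in week 1 dermis. Stat6 changed by 0.1805 in day 3 epidermis, −0.9827 in week 1 epidermis and −0.8083 in week 1 dermis. Socs1 changed by 1.0021 in day 3 epidermis, 0.7787 with the inhibitor, 0.9940 in week 1 epidermis and −0.4918 in week 1 dermis. Socs3 changed by 0.6059 in day 3 epidermis with the inhibitor, −0.9199 in week 1 epidermis and −1.7294 in week 1 dermis. Cish changed by 0.8511 in day 3 epidermis with the inhibitor, −1.2026 in week 1 epidermis and −1.7466 in week 1 dermis.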

How the results depend on the processing

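Over the alternatives other than leaving out a library, 478 of 528 member results kept their direction and side of the threshold, 31 lost a call, 5 gained one and 14 changed sign; leaving out a library gave 742 of 840 kept, 58 lost, 22 with a changed sign and 18 gained. The causes were not tested. No paired analysis was possible because the columns carry no replicate numbers. Averaging the closest pairs, and leaving out WT library b with icKO library c, were chosen after seeing the data. Of 8 members, the count past the threshold without inhibitor went from 2 to 0 in a fit of the compared groups only and with the closest pairs averaged. With the inhibitor it went from 5 to 1 with a sex term and 3 with the pairs averaged. For the inhibitor in icKO it went from 1 to 0 with the pairs averaged or the 2 libraries out; in WT from 1 to 0 with the compared groups only or the pairs averaged, and to 2 with a sex term or the 2 libraries out. The interaction count went from 1 to 0 with a pseudocount of 0.1 RPKM, no filter, quantile normalization, no trend, a sex term or the pairs averaged, and to 2 with the 2 libraries out. In week 1 epidermis it went from 5 to 3 with no filter and 2 with quantile normalization, and between tissues from 4 to 2 with no filter.

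Leaving out each library gave 1 to 2 members past the threshold without inhibitor, 4 to 6 with it, 0 to 2 for the inhibitor in icKO, in WT and for the interaction, 0 to 3 in day 3 dermis, 0 to 6 in week 1 epidermis, 6 to 8 in week 1 dermis, 1 to 5 between tissues and 1 to 4 for tissue by genotype. Over all genes, averaging the pairs took the calls without inhibitor from 1679 to 41, with it from 4496 to 1807, for the inhibitor in icKO from 727 to 21, in WT from 2480 to 55 and for the interaction from 290 to 0. The compared groups alone gave 106 and 245 calls in place of 1679 and 2480, and 6140 in place of 4496. A sex term gave 2812, 1337, 352, 1589 and 37 in the same order as the averaged pairs.

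Changed signs were those of uncalled values, except Socs3 with the inhibitor. Without inhibitor Socs3 was −0.0318 with quantile normalization, −0.4397 with a sex term, −0.0167 with the pairs averaged and −0.0737 with the 2 libraries out, and Stat5a was −0.1348 with a sex term. With the inhibitor and a sex term Stat6 was 0.114 and Socs3 −0.0217. For the inhibitor in icKO Socs1 was −0.0299 with a sex term and −0.0299 with the 2 libraries out. With quantile normalization Cish in WT was −0.0163, Stat2 in week 1 epidermis 0.343 and Stat3 between tissues 0.1018. In the interaction Stat2 was −0.0034 and Stat3 −0.0078 with the 2 libraries out. Leaving out a library gave −0.0608 to 0.0013 for Stat5b and −0.0831 to 0.1786 for Socs3 without inhibitor, −0.0648 to 0.1001 for Stat5a and −0.0794 to 0.0266 for Stat6 with it, −0.0299 to 0.1606 for Socs1 with the inhibitor in icKO and −0.2367 to 0.104 for Cish in WT. At week 1 it gave −0.6731 to 0.1946 for Stat2 in epidermis, −0.2046 to 0.1138 for Stat3 and −0.1097 to 0.1615 for Stat6 between tissues, and −0.8139 to 0.0538 for Stat2, −0.3204 to 0.1335 for Stat5a and −0.1787 to 0.5274 for Stat6 by genotype. Fits that leave 1 library in a group assume that it varies like the other group. RPKM carries no read counts, so depth limits Stat4 most, at under 1 RPKM in 27 of 29 libraries.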
